A study of Rattus norvegicus with 30 samples.

Results

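The comparison is between the yoked shock-resistant saline rats (YSR, n = 5) and the control rats (CT, n = 7), 12 of the 30 RNA sequencing libraries of the series, chosen by the group name at the start of each library's title. All were adult male wild type Sprague Dawley rats that pressed a lever for saline infusions, with no methamphetamine (METH) at any time, and the labels give 1 library per rat. CT rats received no foot-shock in 21 days of training and thereafter. After the same 21 days, each YSR rat received, for 8 days, the foot-shocks of a shock-resistant METH-taking (SR) rat to which it was connected, so that its shocks did not depend on its own lever presses. The other groups are SR rats (n = 7), shock-sensitive METH-taking rats (SS, n = 6) and saline rats yoked to SS rats (YSS, n = 5). YSR vs. CT thus sets saline rats with the shock history of SR rats against saline rats without shocks.

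The hippocampus is known for its part in contextual memory and in the control of stress hormones, and foot-shock is a widely used aversive stimulus that this region helps to associate with a place. A yoked animal is a control for the shocks themselves, since it takes no drug. The number of shocks was set by the SR partner, and YSR rats cannot be compared here by how many each received. The tissue is given as dorsal striatum in 1 field of the deposited records, while their protocol text and the study's methods speak of the hippocampus. The records place the dissection 2 h after the last session, while the methods place it directly after. Marker genes could not be used to settle the tissue, because the tables give Ensembl identifiers without gene symbols and 0 identifiers could be matched to a symbol. Genes are therefore described by position, as the deposited tables give it, and 4 of them by identifier; no gene function or sequence could be assigned. The genome build is not given in the sources used here.

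Total counts were between 14584340 and 19997820 in YSR libraries (median 17110757) and between 16224250 and 19404440 in CT libraries (median 17386092). The smallest library of the series was YSR XII-R10. A count of 3, the floor used here for detection, was 0.15 to 0.21 CPM (counts per 1e+06 counts) in these libraries. Titles also carry a cohort code, XII or XIII, and a letter, L or R, whose meaning the sources used here do not give. Of the YSR libraries, 3 were of cohort XII and 2 of cohort XIII, and all 5 carried the letter R. Of the CT libraries, 1 was of cohort XII and 6 of cohort XIII, while 2 carried the letter L and 5 the letter R. Group and cohort therefore overlapped in part, and the main numbers of genes and the genes given by identifier are also given with cohort as a covariate. One CT library stood apart from the rest of its group, XIII-L11, whose reads on chromosome Y summed to 139 CPM against 225 to 236 CPM in the other 6 CT libraries.

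Of 15797 genes tested, 19 differed between YSR and CT at an adjusted p-value under 0.05 (edgeR quasi-likelihood test, Benjamini-Hochberg adjustment), or 0.12% of those tested. Of these, 17 were lower in YSR rats (0.108%) and 2 were higher. With cohort in the model 16 genes passed (0.101%), and all 16 were among the 19. Libraries outside the comparison separated the 19 genes further. In 15 of the 17 lower genes the SR libraries with the letter R were also lower than the SR libraries with the letter L, at an unadjusted p-value under 0.05, against 2.88% of all genes tested. The remaining 4 genes, 2 higher and 2 lower, did not pass that test, which does not show equal levels in both letters. In bulk tissue, fewer cells of a type and less RNA per cell cannot be told apart in any of these results. Other origins of a difference between libraries were not tested either.

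**Figure D1:**
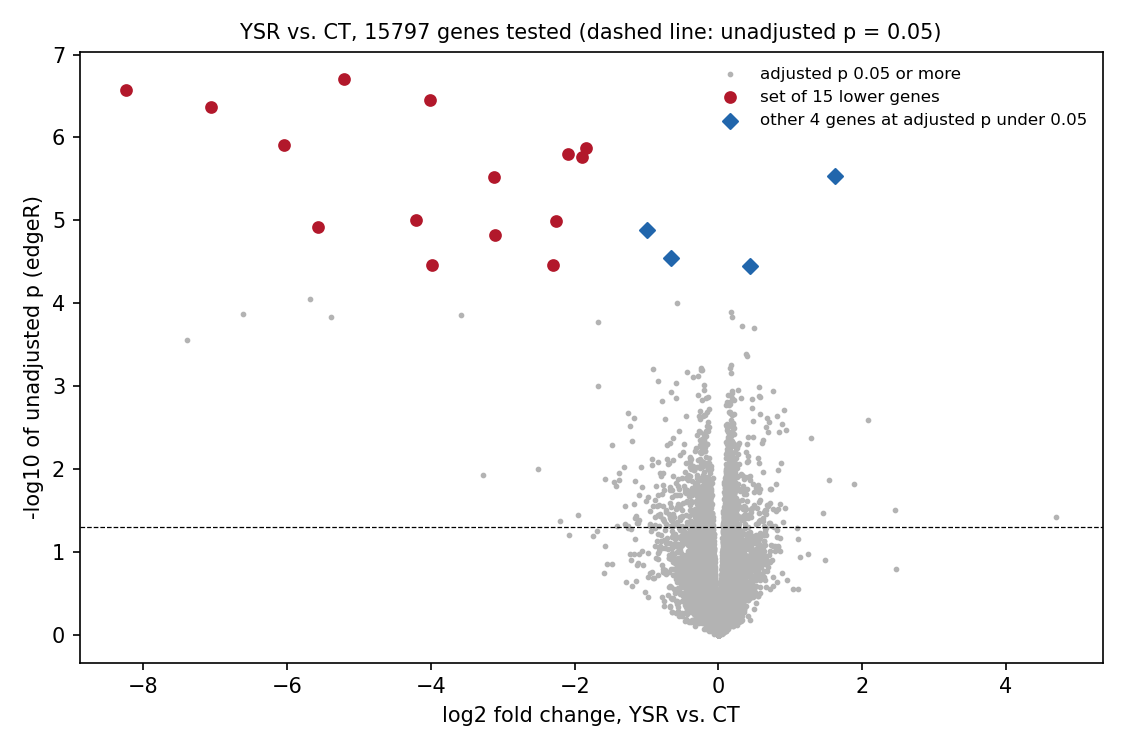
Each point is 1 of the 15797 genes tested in YSR vs. CT, with the fitted log2 fold change on the horizontal axis (negative is lower in YSR) and −log10 of the unadjusted edgeR p-value on the vertical axis. The 15 genes of the lower set (red) lie at −1.84 or below, and the fitted positions of 6 of them, with every YSR library at 3 counts or fewer, depend on the prior count. Other red points near the floor, such as the one at −5.22, depend on it too. The red points are to the left of the other 4 genes at an adjusted p-value under 0.05 (blue diamonds), which lie between −0.99 and 1.62.

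ENSRNOG00000049918, on the plus strand of chromosome 9 from 10952374 to 10954681 with 2 merged exons, was higher in YSR rats. Its level was 6.64, 7.62, 8.32, 9.38 and 11.1 CPM in the 5 YSR libraries. In CT libraries the lowest, median and highest levels were 1.30, 2.80 and 4.02 CPM. Every YSR library was above every CT library, and the lowest YSR level exceeded the highest CT level by more than the SD of either group. The means were 8.61 ± 1.71 CPM (SD, n = 5) and 2.80 ± 0.93 CPM (SD, n = 7), a log2 fold change of 1.62 ± 0.28 (SE, adjusted p = 0.0047 in edgeR). With cohort in the model the log2 fold change was 1.57 ± 0.31 (SE, adjusted p = 0.021). Within cohort XIII the 2 YSR libraries were at 6.64 and 7.62 CPM and the 6 CT libraries between 1.30 and 4.02 CPM. The call held in edgeR without each of the 12 libraries in turn. Over 10 alternative settings the adjusted p was 5.5e-05 to 0.74, the latter in cohort XIII alone.

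In the other groups the mean of ENSRNOG00000049918 was nearer to that of CT rats. It was 3.08 ± 0.77 CPM in SR rats (SD, n = 7), 3.51 ± 1.55 CPM in SS rats (SD, n = 6) and 4.16 ± 2.33 CPM in YSS rats (SD, n = 5). YSS libraries spread from 1.76 to 7.45 CPM, so that the highest of them lay within the range of YSR. The difference between YSR and YSS rats, 1.05 ± 0.30 on the log2 scale (SE), had an unadjusted p of 0.0016 in edgeR and an adjusted p of 1.

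ENSRNOG00000018338, on the minus strand of chromosome 5 from 173216741 to 173222440, was the other higher gene, and its change was small. YSR libraries were at 28.5, 29.7, 31.3, 31.6 and 38.1 CPM, and CT libraries had a lowest, median and highest level of 18.7, 23.4 and 26.05 CPM. The groups did not overlap. The log2 fold change was 0.44 ± 0.09 (SE, adjusted p = 0.030 in edgeR), or 1.36-fold, and with cohort in the model it was 0.41 ± 0.10 (SE, adjusted p = 0.12). The YSS libraries lay close together at 25.7 to 26.6 CPM, below every YSR library and above 6 of the 7 CT libraries. Over the 10 alternative settings the adjusted p of this gene was 0.0034 to 0.82. The call was lost without any 1 of 8 libraries, CT XIII-L11, XIII-L12, XIII-R05 and XIII-R12 and YSR XIII-R08, XII-R02, XII-R06 and XII-R10, with adjusted p-values of 0.059 to 0.28 in edgeR. The largest of these came without YSR XII-R06, the library with the highest level.

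ENSRNOG00000009227, with a single exon on the plus strand of chromosome 3 from 72540538 to 72544182, was lower in YSR rats. Its level was 0.998, 1.89, 2.03, 2.44 and 2.76 CPM in YSR libraries, which corresponds to 20 to 46 counts. CT libraries had a lowest, median and highest level of 3.17, 4.20 and 4.85 CPM, or 56 to 85 counts. No YSR library reached the lowest CT library. The log2 fold change was −0.99 ± 0.19 (SE, adjusted p = 0.015 in edgeR), and with cohort in the model it was −1.09 ± 0.20 (SE, adjusted p = 0.0081). YSS rats, which also received shocks, were at 3.90 ± 0.28 CPM (SD, n = 5), and their difference from CT was −0.04 on the log2 scale. SS rats were at 3.84 ± 0.76 CPM (SD, n = 6) and SR rats at 2.86 ± 0.71 CPM (SD, n = 7). The SR libraries with the letter R were at 1.82, 2.08, 2.95 and 3.21 CPM. Those with the letter L were at 2.94, 3.07 and 3.94 CPM, and R against L was −0.40 on the log2 scale (unadjusted p = 0.099 in edgeR). The difference between YSR and YSS was −0.96 ± 0.20 (SE), with an unadjusted p of 5.4e-05 in edgeR, the smallest of all genes in that comparison, and an adjusted p of 0.62. The YSR vs. CT call was lost without YSR XIII-R10, XII-R02 or XII-R10, with adjusted p-values of 0.077, 0.063 and 0.061 in edgeR. With only the 12 libraries of YSR and CT in the fit it was also lost (adjusted p = 0.081 in edgeR). It was lost too when only libraries with the letter R were fitted, although the log2 fold change stayed at −0.99 (SE 0.22 in place of 0.19, adjusted p = 0.13). Over the 10 alternative settings the adjusted p was 0.00031 to 0.70.

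ENSRNOG00000047924, on the plus strand of chromosome 18 from 72005581 to 72462292, a span of 456712 bases, was the other lower gene. YSR libraries were at 2.22, 2.45, 2.99, 3.09 and 3.39 CPM and CT libraries had a lowest, median and highest level of 3.68, 4.56 and 5.24 CPM. These groups did not overlap either, although the gap between them was narrow. The log2 fold change was −0.66 ± 0.13 (SE, adjusted p = 0.028 in edgeR), and −0.60 ± 0.14 with cohort in the model (SE, adjusted p = 0.10). YSS rats were at 3.43 ± 0.41 CPM (SD, n = 5). Their own difference from CT was −0.38, with an unadjusted p of 0.0065 and an adjusted p of 0.98 in edgeR. SS rats were at 3.50 ± 0.54 CPM (SD, n = 6) and SR rats at 3.70 ± 0.59 CPM (SD, n = 7). The CT mean, 4.48 CPM, was thus the highest of all groups, and a lower level than in CT was not particular to YSR rats. The call was lost without any 1 of 8 libraries, CT XIII-L11, XIII-L12, XIII-R06 and XIII-R12 and YSR XIII-R10, XII-R02, XII-R06 and XII-R10, with adjusted p-values of 0.057 to 0.17 in edgeR. It was also lost with only the 12 libraries of YSR and CT in the fit (adjusted p = 0.12 in edgeR). Over the 10 alternative settings the adjusted p of this gene was 0.0072 to 0.83.

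**Figure D2:**
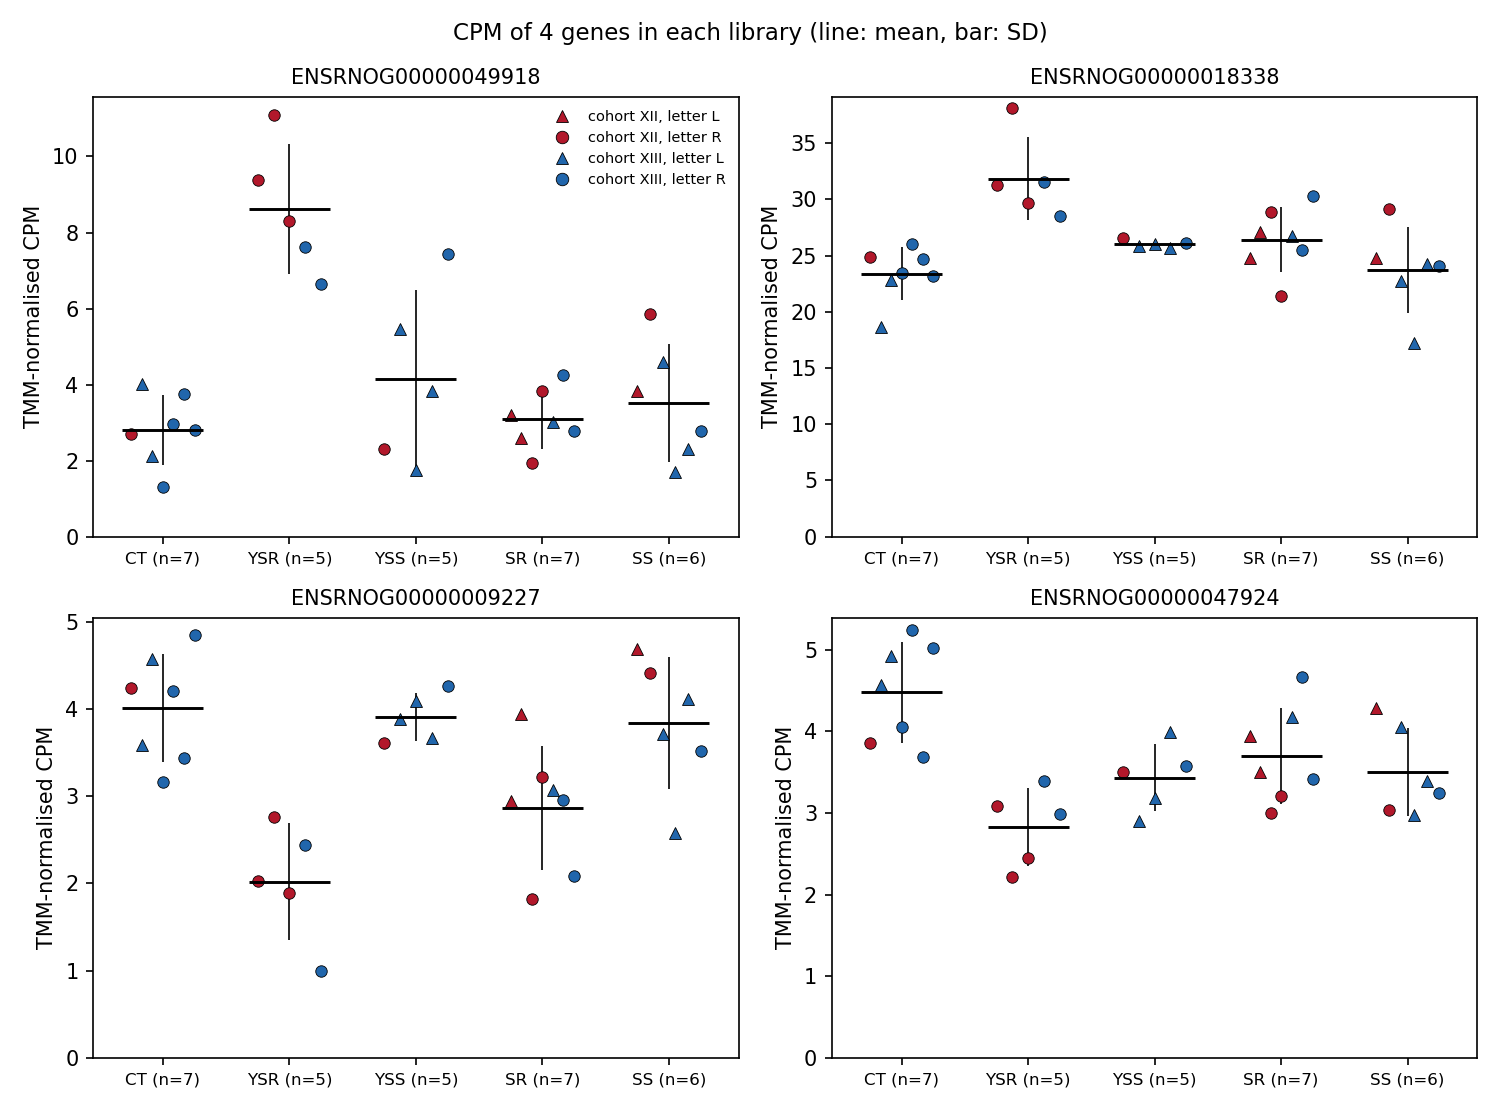
Normalised CPM of the 4 genes (vertical axes, from 0) in each library of the 5 groups (horizontal axes), with the mean as a line, the SD as a bar, colour for the cohort and shape for the letter. ENSRNOG00000049918 and ENSRNOG00000018338 are above CT in every YSR library, ENSRNOG00000009227 and ENSRNOG00000047924 are below CT in every YSR library, and ENSRNOG00000009227 is at 3.61 to 4.26 CPM in YSS.

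The set of 15 lower genes was counted at a small part of its CT level in YSR rats. Summed over the set, the 5 YSR libraries were at 7.93, 8.21, 9.43, 9.70 and 10.6 CPM. The lowest, median and highest CT libraries were at 43.9, 67.6 and 76.8 CPM. Every gene of the set was lower in every YSR library than in every CT library, a pattern found in 75 genes in this direction and 64 in the other, or 0.88% of all genes tested. As the genes were chosen for this difference, the sums are a description and carry no test.

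Members of the set lay on 7 chromosomes and 1 scaffold, and part of them were neighbours. On chromosome 2, 3 were neighbours among the genes tested, between 181987217 and 182038178, and another lay from 180897011 to 180914940. On chromosome 16, 2 lay close to each other, from 6970342 to 6985579 and from 7012354 to 7026540. Others were on chromosome 6 (33176778 to 33224997), chromosome 9 (74124016 to 74236274), chromosome 1 (170423483 to 170431073 and 213511874 to 213535542), chromosome 5 (58994682 to 58994953 and 64805773 to 64818824) and chromosome 14 (19176277 to 19191863 and 20266891 to 20302581). The last was a feature of 267 bases on the unplaced scaffold KL568242.1. Neighbouring genes can share reads where the annotation overlaps. The neighbours of the set on chromosomes 2 and 16 do not overlap each other in position. The strand setting of the counting is not given in the sources used here.

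In 6 of the 15 genes every YSR library had 3 counts or fewer, that is, at or under the floor. The chromosome 2 gene that starts at 182027115 had 0 or 1 count in YSR libraries and 69 to 121 counts in CT libraries. The scaffold feature had 0 or 1 count in YSR libraries and 24 to 66 counts in CT libraries. In these 6 genes a fitted fold change depends on the prior count, and no value of it is given. In the other 9, the log2 fold change was between −1.84 and −5.22. Of these, the chromosome 6 gene, at −5.22, had 0 to 5 counts in YSR libraries. The chromosome 2 gene that starts at 182006242, at −3.98, had 0 to 8. Both were near the floor, so their fold changes also depend on the prior count. The most highly counted of them, on chromosome 14 from 19176277, was at 4.04 ± 0.97 CPM in YSR (SD, n = 5) and 14.5 ± 4.15 CPM in CT (SD, n = 7), with 51 to 96 and 149 to 359 counts. The gene on chromosome 9 was at 2.02 ± 0.59 CPM in YSR and 9.65 ± 2.63 CPM in CT. The gene on chromosome 6 was at 0.143 ± 0.116 CPM in YSR and 5.79 ± 1.24 CPM in CT. Thus the set held genes that were nearly uncounted in YSR rats and 5 genes whose CT mean was 3.59 to 4.92 times the YSR mean. With cohort in the model 14 of the 15 kept an adjusted p-value under 0.05, and when only libraries with the letter R were fitted all 15 did.

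The low level of the set was not particular to YSR rats. The sum was 9.27 ± 1.497 CPM in YSS rats (SD, n = 5), 9.39 ± 1.41 CPM in SS rats (SD, n = 6) and 9.18 ± 1.10 CPM in YSR rats (SD, n = 5). In SR rats the 4 libraries with the letter R were at 9.21 to 11.6 CPM and the 3 with the letter L at 46.0 to 65.5 CPM. The SR libraries with the letter L thus lay within the CT range. All SR rats took METH and received shocks. The 15 genes were kept because they were lower in SR libraries with the letter R than with the letter L. The split of the SR sums therefore restates that choice and carries no test. Within CT the 2 libraries with the letter L were at 43.9 and 44.4 CPM and the 5 with the letter R at 61.0 to 76.8 CPM. The high level therefore appeared in all 7 CT libraries and in 3 SR libraries, and in no other library. In the fit, 0 of the 15 genes differed between YSR and YSS at an unadjusted p-value under 0.05, where 3.29% of all genes did. For 15 genes, 0 is near that share and is not a result about the set. Some members had too few counts in both groups to differ, such as 0 or 1 for the chromosome 2 gene that starts at 182027115. YSS vs. CT shares its CT libraries with YSR vs. CT, by which the genes were chosen. In it 12 of the 15 passed at an adjusted p-value under 0.05, which follows in part from that choice and is a description. Of all genes, 0.0823% passed there, and 5.01% had an unadjusted p-value under 0.05. What the letter stands for is not given in the sources used here, and its part in these levels was not tested.

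**Figure D3:**
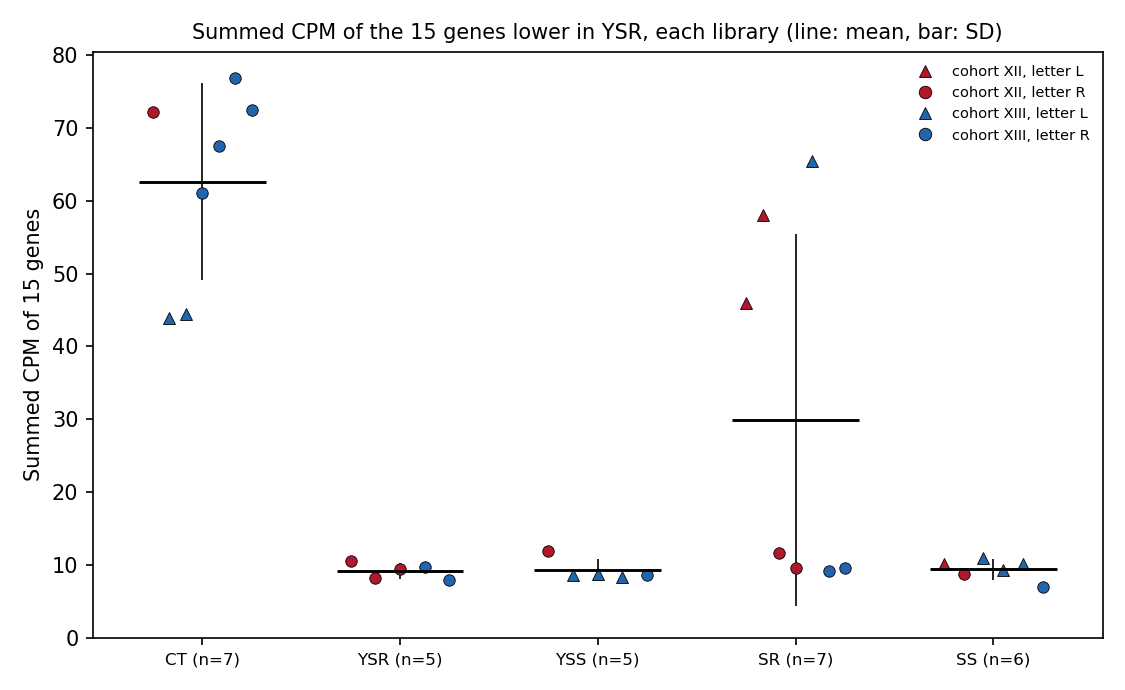
Summed normalised CPM of the 15 lower genes (vertical axis, from 0) in each of the 30 libraries by group (horizontal axis), with the mean as a line, the SD as a bar, colour for the cohort and shape for the letter. All 7 CT libraries and the 3 SR libraries with the letter L are at 43.9 CPM or more, and all the others are at 11.9 CPM or less. The genes were chosen by YSR vs. CT and by the letter within SR, so these splits follow from the choice.

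Beyond these genes the differences between YSR and CT rats were small. At an unadjusted p-value under 0.05, 7.56% of the genes tested differed, 3.89% higher and 3.67% lower in YSR. The median absolute log2 fold change of these 1195 genes was 0.19, 66.8% of them changed less than 1.2-fold, and 60 changed 2-fold or more. A change of 1.7-fold or more at that p-value was found in 104 genes (0.658%), 81 of them lower (0.513%) and 23 higher in YSR (0.146%). Of the 81, 23 were also lower in SR libraries with the letter R than with the letter L. Of the other 58, 37 had an unadjusted p-value under 0.05 with cohort in the model, as did 17 of the 23 higher genes. In 51 of the 104 genes the mean was under 1 CPM in both groups. Without YSR XIII-R08 the number at 1.7-fold was 187.

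With cohort in the model the number at that p-value was 886 (5.61%), with 475 higher (3.01%) and 411 lower (2.60%) in YSR. The 658 genes listed by both fits in the same direction made up 55.1% of the list without cohort and 74.3% of the list with cohort. No gene listed without cohort changed its sign when cohort was added.

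Genes with an unadjusted p-value under 0.05, a mean of at least 1 CPM in either group and no overlap of libraries were ordered by the size of the change, and the 5 largest in each direction were taken. ENSRNOG00000049918 was second among those higher in YSR. The first, on chromosome 6 from 144071914 to 144073584, was at 0.80 to 1.30 CPM in YSR and 0.055 to 0.64 CPM in CT (log2 fold change 1.88 ± 0.73, SE, adjusted p = 0.60 in edgeR, and 2.23 with cohort). A gene on chromosome 8 from 58431407 to 58435654 was at 1.45 ± 0.34 CPM in YSR (SD, n = 5) and 0.779 ± 0.109 CPM in CT (SD, n = 7), with an adjusted p of 0.44 in edgeR. A gene with 13 merged exons on chromosome 3, from 154597168 to 154627257, was at 11.8 ± 1.72 CPM in YSR and 7.45 ± 1.69 CPM in CT, also with an adjusted p of 0.44 in edgeR. None of these 3 passed the adjusted threshold. Of the 5 largest falls, 3 belonged to the set of 15, and the other 2 were on chromosome 4 (99063181 to 99066954) and chromosome 16 (18690246 to 18709133). The first had 0 counts in every YSR library and 0.12 to 2.86 CPM in CT (adjusted p = 0.14 in edgeR), and the second was at 0.022 ± 0.030 CPM in YSR and 1.54 ± 1.12 CPM in CT (adjusted p = 0.071 in edgeR).

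The direction of the small differences depended on the span of the gene, from its first to its last base in the deposited tables. Of genes that spanned up to 10 kb, 5.40% were higher and 2.26% lower in YSR at an unadjusted p-value under 0.05. Of genes between 10 and 30 kb, 4.26% were higher and 2.69% lower. The order turned in genes of 30 to 100 kb, with 2.87% higher and 5.05% lower. Of genes over 300 kb, 0.562% were higher and 8.15% lower. The median log2 fold change went from 0.03 in the shortest to −0.06 in the longest class, so that each difference was small. With cohort in the model the shares of lower genes were 2.05%, 2.173%, 3.19%, 4.16% and 2.25% from the shortest to the longest class, and those of higher genes were 3.84%, 3.32%, 2.48%, 1.28% and 0.843%. The gradient was thus also seen with cohort up to 300 kb, while the longest class had fewer lower genes than without it. ENSRNOG00000047924 belongs to the longest class, and ENSRNOG00000049918 and ENSRNOG00000018338, the higher genes, to the shortest.

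**Figure D4:**
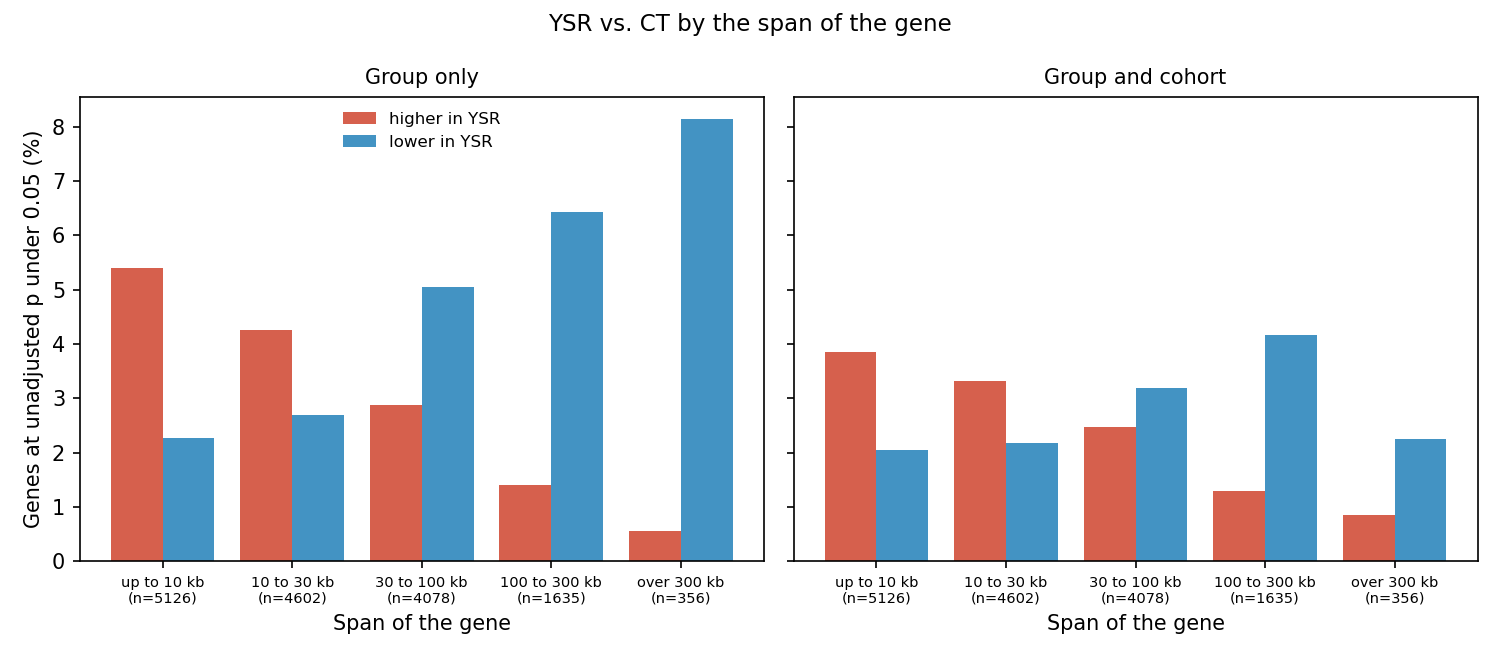
Share of the genes tested (vertical axis, percent) with an unadjusted p-value under 0.05 in YSR vs. CT, higher (red) or lower (blue) in YSR, by the span of the gene (horizontal axis, n is genes tested), with group only (left) and with cohort (right). Without cohort the share of lower genes goes from 2.26% to 8.15% with increasing span, and with cohort it goes from 2.05% to 4.16% in the class of 100 to 300 kb and is 2.25% in the longest.

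The gradient can also be given by library. A length index was computed as the median deviation of genes over 100 kb from their mean over all 30 libraries, less that of genes up to 10 kb, on the log2 scale. YSR libraries had an index of −0.034, −0.030, −0.029, −0.021 and 0.010. CT libraries had a lowest, median and highest index of −0.0059, 0.024 and 0.121. The groups overlapped only in that YSR XII-R10 was above both CT libraries with the letter L, while all 5 CT libraries with the letter R were above all YSR libraries. The mean difference was −0.067. The index restates the gradient seen in the same libraries, so it is a description and carries no test. Within cohort XIII the 2 YSR libraries were below all 6 CT libraries, and the 1 CT library of cohort XII, at 0.016, was above the 3 YSR libraries of that cohort. SR, SS and YSS libraries spread from −0.215 to 0.155, so that the YSR and CT values lay within the range of the other groups. The mean index was 0.046 in CT, −0.021 in YSR, −0.0069 in YSS, 0.0044 in SS and −0.040 in SR. CT thus had the highest mean, and the YSR mean lay between those of SR and YSS. The number of genes with 3 or more counts was 16907 to 17582 in YSR libraries and 17262 to 17695 in CT libraries. RNA integrity values were not analysed here, and their part in the gradient was not tested.

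**Figure D5:**
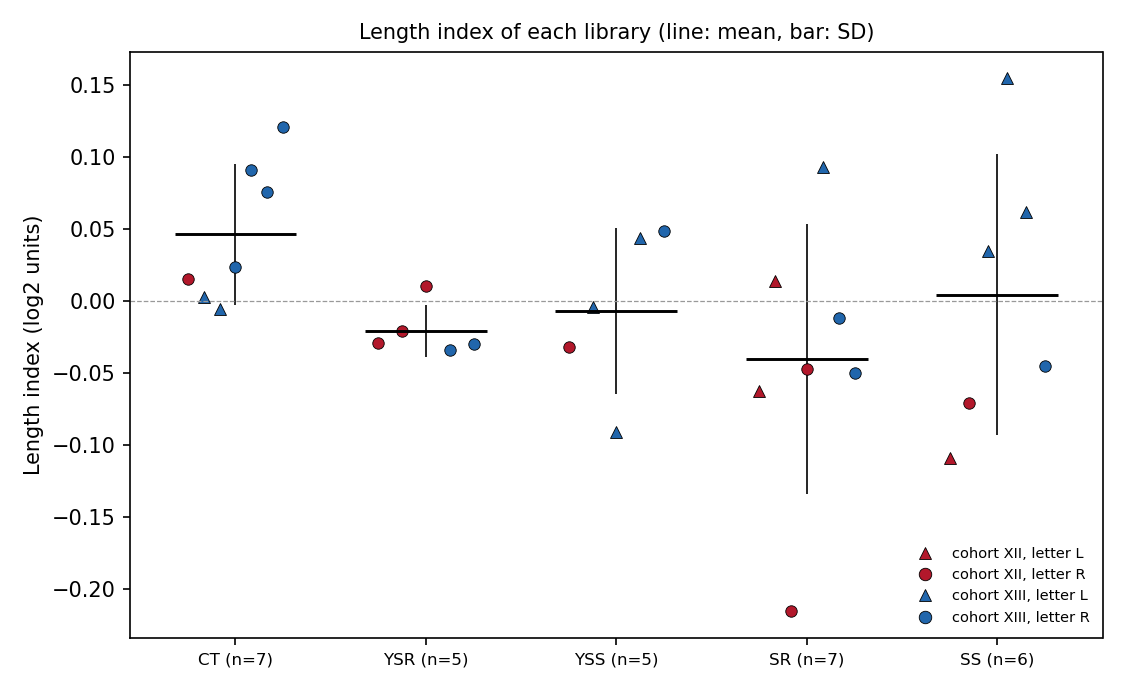
Length index of each library in log2 units (vertical axis) by group (horizontal axis), with the mean as a line, the SD as a bar, colour for the cohort and shape for the letter. YSR libraries lie between −0.034 and 0.010 and CT libraries between −0.0059 and 0.121, and the SR library at −0.215 is the lowest of all.

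Highly counted genes leaned the other way from long ones. Of genes over 100 CPM, 7.67% were higher and 2.74% lower in YSR, and with cohort in the model 5.02% and 1.97%. Of genes between 1 and 10 CPM, 2.29% were higher and 3.62% lower, and with cohort 1.99% and 2.70%. Genes with more than 20 merged exons were higher in 1.24% and lower in 5.84%, and with cohort in 1.56% and 3.08%. These classes overlap with the classes of span, and their parts were not separated. By chromosome, genes on chromosome 18 were lower in YSR in 7.62%, or 32 of 420 genes, against 3.67% of all genes tested, and with cohort in 5.48% against 2.60%. This chromosome was picked after the shares of all chromosomes were seen, and it also carries ENSRNOG00000047924.

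Runs of genes that adjoin on the chromosome and differed in the same direction at an unadjusted p-value under 0.05 were counted. Of all genes tested, 3.89% were higher and 3.67% lower at that p-value. The number of runs that a random order would give was not computed. There were 5 runs of 3 such genes among the genes tested, and none was longer. One was the run on chromosome 2 in the lower set. The other runs of lower genes were on chromosome 1 (263554453 to 263762785, log2 fold changes of −0.81 to −0.22, all 3 also at an unadjusted p-value under 0.05 with cohort) and on chromosome 8 (63445644 to 63750531, −1.07 to −0.12, 2 of 3 with cohort). Runs of higher genes were on chromosome 19 (26074987 to 26094756, 0.09 to 0.31) and chromosome 5 (147288723 to 147330266, 0.18 to 0.22), with 1 and 0 genes left with cohort.

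The mitochondrial genome, whose transcripts are abundant in neural tissue, held 29 features that were tested, 13 longer ones and 16 of under 100 bases. Reads on it made up 7.16% to 8.72% of the counts in YSR libraries and 6.40% to 8.65% in CT libraries. The means were 8.02% ± 0.71 (SD, n = 5) and 7.52% ± 0.79 (SD, n = 7), a difference within the spread between libraries (p = 0.28, exact permutation test, two-sided). Within cohort XIII the 2 YSR libraries were at 7.16% and 8.04% and the 6 CT libraries between 6.40% and 8.65%. Of the 13 longer features, 1 was higher (from 9451 to 9798) and 0 lower at an unadjusted p-value under 0.05, and the median log2 fold change was 0.12. That feature had an unadjusted p of 0.10 in edgeR when cohort was added, and 0 longer features were higher. Of the 16 short features, 0 were higher and 4 lower, with a median of −0.08, and with cohort the numbers were also 0 and 4. Of all genes tested, 3.89% were higher and 3.67% lower at this p-value. The libraries were made from RNA selected by oligo(dT).

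Among the short features, the one on the minus strand from 6865 to 6933 had the smallest p-value in both fits. It was at 40.6, 41.8, 42.2, 43.4 and 44.9 CPM in YSR libraries and had a lowest, median and highest level of 50.4, 55.4 and 65.8 CPM in CT libraries. The groups did not overlap, and the counts behind them were 598 to 842 and 821 to 1109. The log2 fold change was −0.45 ± 0.13 (SE, adjusted p = 0.41 in edgeR), and −0.57 with cohort in the model (unadjusted p = 7.0e-05, adjusted p = 0.061). The feature overlaps its longer neighbour on the other strand, from 5323 to 6867, in its first bases. That neighbour was at 21219 ± 1492 CPM in YSR (SD, n = 5) and 19267 ± 2055 CPM in CT (SD, n = 7), with an adjusted p of 0.70 in edgeR. The features from 3835 to 3903, from 7693 to 7756 and from 3695 to 3763 were lower as well at an unadjusted p-value, with log2 fold changes of −0.40, −0.72 and −0.68 and adjusted p-values of 0.55 to 0.60 in edgeR. None of the 29 features passed the adjusted threshold in either fit.

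YSR and YSS rats both took saline and received shocks, and the number of shocks followed SR rats in one group and SS rats in the other. The groups also differed in their title codes. All YSR libraries carried the letter R, while the YSS libraries were XIII-L02, XIII-L04, XIII-L06, XIII-R04 and XII-R04. The number of shocks and the letter were not separated in this comparison, and the part of either was not tested. At an unadjusted p-value under 0.05, 519 genes differed between them (3.29%), and 0 passed an adjusted p-value under 0.05 in edgeR, while DESeq2 listed 469 and 1. Adding cohort gave 593 at the unadjusted p-value in edgeR. The direct comparison also tests whether the differences of YSR and YSS from CT are unequal, since CT cancels. Of the 4 genes outside the lower set, ENSRNOG00000009227, ENSRNOG00000049918 and ENSRNOG00000018338 had unadjusted p-values of 5.4e-05, 0.0016 and 0.0067 in it, and ENSRNOG00000047924 one of 0.067. Against CT, their log2 fold changes were −0.99, 1.62, 0.44 and −0.66 in YSR and −0.04, 0.57, 0.15 and −0.38 in YSS. The 4 genes were chosen for their YSR vs. CT difference and the same YSR libraries enter both comparisons, so that values nearer to CT in YSS follow in part from that choice and the unadjusted p-values are a description. In edgeR no difference between the yoked groups passed the adjusted threshold.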

How the data were processed

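The members of the comparison, the set of 15 genes and the classes by span were chosen with earlier results of these data known. The authors deposited raw counts of reads per Ensembl gene, not normalized, in 1 table per rat that also gives position and length for 32552 genes. Per the submitters' processing notes, bcl2fastq 2.17, Trimmomatic 0.36, STAR 2.5.2b and featureCounts of Subread 1.5.2 were used. The genome build, annotation and strand setting are not given in the sources used here, nor is the lane of each library, so that close paralogs and overlapping genes may share reads.

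Samples were grouped, and given cohort and letter, from their titles. The main test was edgeR 4.0.16 in R 4.3.3 on all 30 libraries and 5 groups (TMM normalization, default filter, 15797 genes, quasi-likelihood test, contrast YSR − CT), in place of the one-way analysis of variance of the study, since the values are counts. Adjusted p-values cover all genes tested. CPM are TMM-normalised, log2 CPM used a prior count of 2, and a level of 3 counts served as the floor. The fitted fold changes used the default prior count of the edgeR fit, not that of log2 CPM. Intervals of counting error are not given, since replicate spread was larger: between libraries of the same group chi-square per degree of freedom was 6 to 16.1, and no library was a copy of another. The scripts were tested on simulated counts. Precision is limited by 5 and 7 libraries. The p-values of the main edgeR fit rest on the spread between rats within all 5 groups, the METH-taking groups included. That of the exact permutation test rests on the YSR and CT libraries alone.

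The rule for named genes took every gene at an adjusted p-value under 0.05, the 5 largest rises and falls without overlap, and members of gene lists. Since identifiers without symbols carry little, 4 were printed, those outside the set of 15, a choice made after values were seen. The gene lists and markers could not be applied without symbols and were not analysed here. Chromosomes, runs, mitochondrial features and measures of libraries were also chosen after values were seen. The alternatives were DESeq2 1.42.0, other size factors, filters, fold criteria and samples.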

Additional observations from a re-analysis of the deposited data

Results flagged for a closer look

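There were 2 values that stood far from the others of their group, by the gap of an extreme library to its nearest neighbour relative to the range of the group. Of 33 groups of values examined, 2 were flagged, and chance flags about 1 in 20, or 1.65 of 33. Reads on chromosome Y summed to 139 CPM in CT XIII-L11 and to between 225 and 236 CPM in the other CT libraries. Without this library 16 genes differed between YSR and CT at an adjusted p-value under 0.05 in edgeR, and all 16 were among the 19. The sum of the 15 lower genes was 11.9 CPM in YSS XII-R04, the one YSS library of its cohort, and between 8.36 and 8.76 CPM in the other YSS libraries. It lay far under the CT libraries, all at 43.9 CPM or more.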

How the results depend on the processing

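The number of genes at an adjusted p-value under 0.05, 19, was 16 to 27 with DESeq2, median-ratio size factors, a filter of at least 1 count, cohort as covariate, only the 12 libraries, only letter R, or SR split by letter (the last added after the data were seen). It was 4 with a filter of at least 10 counts in all libraries, where 2 of the set of 15 could be tested, and 0 in cohort XIII alone (edgeR, 473 higher and 491 lower at an unadjusted p-value). Cohort XIII with only YSR and CT, added after the data were seen, gave 10, of which 9 belong to the set of 15. Without single libraries it was 11 to 20, and it was 11 without YSR XIII-R10, XII-R02, XII-R06 or XII-R10. The number at 1.7-fold, 104, was 168 at 1.5-fold, 60 at 2-fold, 621 with at least 1 count, 16 with the filter of at least 10 counts, 162 with letter R only, and 88 to 187 without single libraries. DESeq2 listed 1 gene in YSR vs. YSS. The causes were not tested. Of 10 alternatives, the adjusted threshold was passed in 8 by ENSRNOG00000049918, in 6 by ENSRNOG00000009227, in 5 by ENSRNOG00000018338 and in 3 by ENSRNOG00000047924, with the same sign in each. In cohort XIII alone their log2 fold changes were 1.34, −1.23, 0.37 and −0.53. Higher and lower genes at an unadjusted p-value were 554 and 627 with median-ratio size factors and 615 and 580 with TMM. No paired analysis was possible because YSR rats were connected to SR rats, not to CT rats. The gene lists were not run. Genes under 1 CPM rest on few counts per library, which limits what could be detected there.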
